A study of Homo sapiens with 4 samples.

Results

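The genes described here are those of the HLA class I pathway: the heavy chains HLA-B, HLA-C, HLA-E and HLA-F, the shared light chain B2M, and 4 genes that supply, transport or load peptides, TAP1, TAP2, TAPBP and ERAP1. They were taken by symbol from the deposited gene table, which held all 9 among 21372 genes, and all 9 passed the filter on low counts with 17304 genes in all. The study sequenced RNA recovered by immunoprecipitation of P5CS, a mitochondrial enzyme of proline synthesis, from NCI-H1299, an established cell line labelled as human lung adenocarcinoma. The series title concerns P5CS as an RNA-binding protein with a part in translation. There were 2 libraries labelled P5CS (called P5CS IP) and 2 labelled input, the starting RNA, all of the same line and growth medium, with no treatment, knockdown or transgene named. The design text of the series speaks instead of LACE-seq with antibodies to P5CS and IgG, and the sample titles were followed here. No control immunoprecipitate was analysed, so each comparison sets the share of an RNA in the P5CS IP against its share in the input. The labels do not say whether replicate libraries are separate cultures. The p-values therefore cover only the spread between these libraries, possibly technical.

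HLA class I molecules show fragments of a cell's own proteins to cytotoxic T cells. Peptides made by the proteasome are pumped into the endoplasmic reticulum by the transporter TAP, a pair of TAP1 and TAP2, and are trimmed there by the aminopeptidase ERAP1. Tapasin, encoded by TAPBP, holds an empty heavy chain with its light chain beta-2-microglobulin beside the transporter until a fitting peptide is bound. HLA-B and HLA-C are classical, highly variable heavy chains. HLA-E presents mainly a peptide from the leader sequences of other class I chains to natural killer cell receptors, and HLA-F is a scarce non-classical chain.

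Likeness of sequence between genes bears on how reads are assigned. Among the genes compared here, the heavy chains HLA-B, HLA-C and HLA-F resemble each other in sequence and the light chain gene does not. The first 50 transcribed bases of 4 of the genes show this, read from the RefSeq promoter windows of GRCh38.p14, which were matched for 8 of the 9 genes, all but HLA-E. They are written 5′ to 3′ on the strand of the gene. In HLA-B and HLA-C the capitals mark the positions at which these genes differ from each other, and in HLA-F and B2M they mark the start codon.
HLA-B, chr6:31357130-31357179, minus strand: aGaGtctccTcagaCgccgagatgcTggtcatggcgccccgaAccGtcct
HLA-C, chr6:31272043-31272092, minus strand: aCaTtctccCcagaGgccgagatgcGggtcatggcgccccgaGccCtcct
HLA-F, chr6:29723434-29723483, plus strand: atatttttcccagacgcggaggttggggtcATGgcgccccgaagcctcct
B2M, chr15:44711517-44711566, plus strand: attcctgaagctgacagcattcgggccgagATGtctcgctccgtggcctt
HLA-B and HLA-C shared 43 of these 50 bases, and HLA-F shared 38 with HLA-B and 40 with HLA-C. B2M shared 17 with HLA-B, 16 with HLA-C and 17 with HLA-F. In HLA-B and HLA-C the start codon lies at base 22, so the stretch holds the start of the leader sequence, the part of the protein from which the HLA-E peptide comes. Over the whole windows of 300 bases, of which 250 lie before the transcribed part, HLA-B and HLA-C were identical at 88.5% of aligned positions. These are the reference sequences and not those of NCI-H1299, whose HLA alleles were not analysed here. Most of each window is not transcribed, and how reads were assigned to HLA-B, HLA-C and other similar genes was not examined. The split of counts between these genes is left uncertain, and a count may miss reads that differ from the reference.

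The counts summed to 31489455 to 46339235 per library, and the 9 genes together took 0.0759 to 0.0794% of them. Of 4 epithelial keratin genes, KRT8 and KRT18 were abundant and fell, and KRT7 and KRT19 had 82 counts or fewer per library and were not called. KRT18 stood at 268.3 ± 1.68 CPM (counts scaled to a common library total) in the P5CS IP and 523.2 ± 14.3 CPM in the input (SD over 2 libraries), and KRT8 at 179.6 ± 2.02 and 297.4 ± 8.25 CPM. Of 4 mesenchymal markers, VIM was lower (log2 fold change -0.44, SE 0.0646), FN1 (0.99, SE 0.0857) and CDH2 (0.49, SE 0.102) were higher, and ZEB1 was not called. Of 12 lung and epithelial markers, 6 had a row, and their summed level was 449.8 to 453.1 CPM in the IP against 807.1 to 839.0 CPM in the input. EPCAM had 0 counts in both IP libraries and 8 and 6 in the inputs, and the lung lineage gene NKX2-1 had 20 and 52 counts in the IP and 8 and 0 in the inputs and was not called. Of 16 blood and immune cell markers, 10 had a row, and they summed to 1.67 and 2.47 CPM in the IP against 1.28 and 1.65 CPM in the input. PTPRC, the pan-leukocyte gene, had 4 to 8 counts per library. The part of these marker differences in the results for the class I genes was not tested.

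The light chain mRNA, B2M, was 3.8-fold below its input level in the P5CS IP, and called differences of the other genes were at most 1.54-fold. Of the 9 genes, 2 were higher in the P5CS IP (TAP1 and TAPBP), 3 were lower (B2M, HLA-E and TAP2) and 4 were not called (edgeR quasi-likelihood test across all 17304 genes, adjusted p under 0.05 by Benjamini-Hochberg, with library sizes scaled by TMM, the trimmed mean of M values). Over all genes tested the same test called 51.0%, 25.4% as higher and 25.6% as lower. The share of the 9 genes called is thus near the background and is no result about them. Their median log2 fold change was -0.18, beside -0.01 over all genes tested. The values of the P5CS IP and input libraries did not overlap for 7 of the 9 genes, as was so for 75.9% of all genes tested. The split of all calls depended on the scaling. With TMM, 49.8% of called genes were higher, and with total counts alone 63.5% were, where the median over all genes tested moved to 0.25 on the log2 scale. With totals taken without the abundant structured and mitochondrial RNAs 40.2% were higher, and that median was -0.21. In the authors' deposited table, 4 of the 9 genes had an adjusted p under 0.05 (B2M, HLA-E, TAP1 and TAPBP). Of all genes in that table, 39.2% did. The authors marked 0 of the 9 as enriched. The share of all genes so marked was not computed, so that 0 is no result about the 9. A difference here is one in the share of an RNA among the RNA of a library, and no measure of its level per cell.

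**Figure D1:**
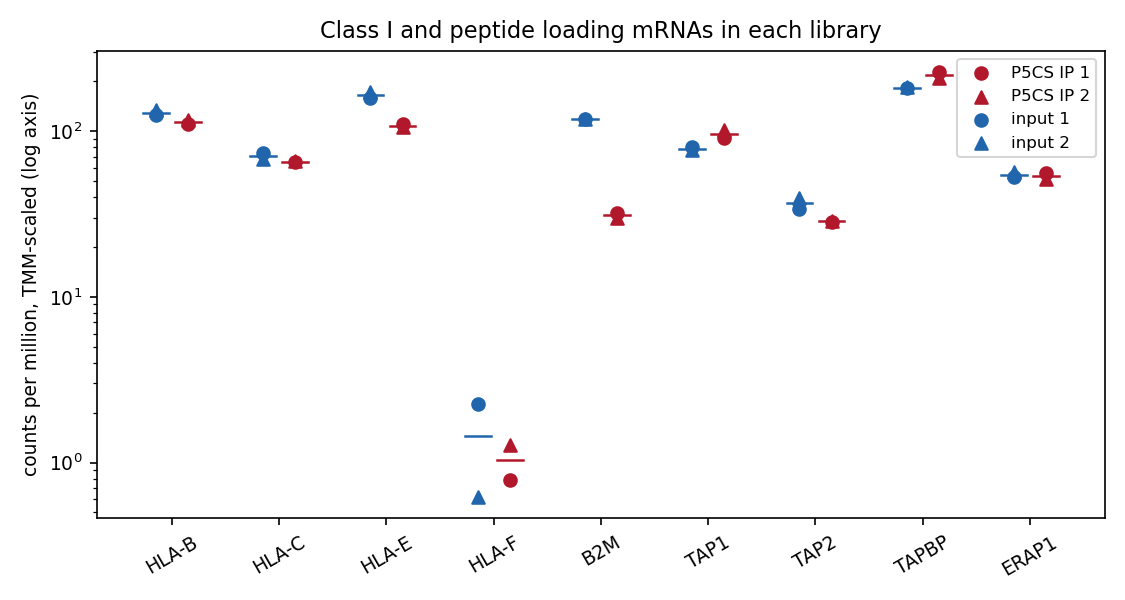
TMM-scaled CPM (log axis) of the 9 genes in each of the 4 libraries, with circles for replicate 1, triangles for replicate 2 and short bars for group means. B2M fell from about 118.3 CPM in the input to 31.1 CPM in the P5CS IP, and the libraries of HLA-F and ERAP1 overlapped between the groups.

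B2M encodes beta-2-microglobulin, without which most class I molecules do not reach the cell surface. It lies apart from the other genes, on chromosome 15 (44711517 to 44718145, RefSeq on GRCh38.p14, as for all gene positions here). It had 1232 and 1034 counts in the P5CS IP libraries and 4426 and 4986 in the inputs. Scaled, these were 32.2 and 30.1 CPM in the IP against 117.7 and 119.0 CPM in the input. Both IP libraries were far below both inputs, and within each group the libraries lay close together. The means were 31.1 ± 1.47 CPM in the IP against 118.3 ± 0.911 CPM in the input (SD over 2 libraries), a level 3.8-fold lower in the IP. Its log2 fold change was -1.93 (SE 0.0967, 95% interval -2.14 to -1.71, adjusted p = 5.98e-08, edgeR, Benjamini-Hochberg). Only 5.22% of all genes tested had a lower log2 fold change.

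HLA-E (chromosome 6, 30489509 to 30494194) was the heavy chain gene that fell. Its levels were 109.9 and 105.5 CPM in the P5CS IP against 158.7 and 173.0 CPM in the input, so both IP libraries were below both inputs. The means were 107.7 ± 3.12 and 165.8 ± 10.2 CPM (SD, n = 2 each). On the log2 scale the difference was -0.62 (SE 0.0864, 95% interval -0.81 to -0.43, adjusted p = 0.000118, edgeR, Benjamini-Hochberg), a level 1.54-fold lower in the IP. With total-count scaling it was -0.36 and still passed (adjusted p = 0.00508, edgeR, Benjamini-Hochberg).

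The classical heavy chain genes did not pass the test. HLA-B (chromosome 6, 31353875 to 31357179) stood at 111.0 and 117.4 CPM in the P5CS IP against 124.8 and 134.2 CPM in the input. Its log2 fold change was -0.18 (SE 0.0873, 95% interval -0.38 to 0.01, adjusted p = 0.108, edgeR, Benjamini-Hochberg). The interval leaves room for a level up to a log2 difference of 0.38 lower and hardly any higher. The sign turned with total-count scaling (0.08), and with totals taken without the abundant structured and mitochondrial RNAs HLA-B passed as lower (-0.38, adjusted p = 0.00368, edgeR, Benjamini-Hochberg).

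HLA-C (chromosome 6, 31268749 to 31272092) stood at 64.7 and 66.4 CPM in the P5CS IP against 74.0 and 67.9 CPM in the input. Both IP libraries lay below both inputs, but the gap between the groups was smaller than the gap between the inputs. The fitted log2 difference was -0.11 (SE 0.0964, 95% interval -0.33 to 0.10, adjusted p = 0.36, edgeR, Benjamini-Hochberg). Its call and direction depended on the setting. HLA-C passed as higher with the length trend removed (0.29, adjusted p = 0.0268) and as lower with totals without structured and mitochondrial RNAs (-0.31, adjusted p = 0.0206, both edgeR with Benjamini-Hochberg), and with total counts it was 0.15 and did not pass.

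HLA-F (chromosome 6, 29723434 to 29738532) was too scarce and too variable for a comparison. It had 30 and 44 counts in the P5CS IP and 85 and 26 in the input, so the inputs lay on both sides of the IP libraries. The log2 fold change of -0.48 had a 95% interval of -2.03 to 1.08 (adjusted p = 0.612, edgeR, Benjamini-Hochberg), and without the first input library it was 0.73. The span of the gene overlaps that of the non-coding HLA-F-AS1, which had 23 to 38 counts per library, and whether the counting used strand is not stated in the sources used here.

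The genes of the peptide transporter were called in opposite directions, and neither call held in all settings. TAP1 (chromosome 6, 32845209 to 32853704) stood at 90.3 and 101.0 CPM in the P5CS IP against 79.7 and 76.9 CPM in the input. Both IP libraries were above both inputs. Its log2 fold change was 0.29 (SE 0.0955, 95% interval 0.08 to 0.50, adjusted p = 0.0268, edgeR, Benjamini-Hochberg), a 1.22-fold higher level. The call ended without the second P5CS IP (0.24, adjusted p = 0.0798), without input 1 (0.31, 0.0824) or input 2 (0.26, 0.148), and with totals without structured and mitochondrial RNAs (0.09, 0.453), all by edgeR with Benjamini-Hochberg.

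TAP2 (chromosome 6, 32821831 to 32838739), its partner, stood at 28.3 and 28.8 CPM in the P5CS IP against 34.0 and 39.7 CPM in the input. Both IP libraries were below both inputs. On the log2 scale the difference was -0.37 (SE 0.127, 95% interval -0.65 to -0.09, adjusted p = 0.0322, edgeR, Benjamini-Hochberg), a 1.29-fold lower level. The call ended without either P5CS IP library (-0.35 each, adjusted p = 0.0746 and 0.0836), without the second input (-0.25, 0.269) and with total-count scaling (-0.10, 0.545), by edgeR with Benjamini-Hochberg, and with DESeq2 (-0.35, adjusted p = 0.0752).

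TAPBP (chromosome 6, 33299694 to 33314078), which encodes tapasin, stood at 227.4 and 209.1 CPM in the P5CS IP against 182.2 and 183.8 CPM in the input, so the inputs were nearly equal and both IP libraries were above them. The fitted log2 difference was 0.25 (SE 0.0812, 95% interval 0.07 to 0.43, adjusted p = 0.0226, edgeR, Benjamini-Hochberg), a 1.19-fold higher level. The call ended without the first P5CS IP (0.20, adjusted p = 0.0645), without the first (0.25, 0.136) or second input (0.26, 0.117), with totals without structured and mitochondrial RNAs (0.06, 0.592) and with the length trend removed (0.13, 0.204), all by edgeR with Benjamini-Hochberg. Its span overlaps that of RGL2.

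ERAP1 (chromosome 5, 96760813 to 96935854), the trimming aminopeptidase, stood at 56.2 and 51.3 CPM in the P5CS IP against 52.5 and 56.3 CPM in the input. The groups overlapped. Its log2 fold change was -0.02 (SE 0.105, 95% interval -0.25 to 0.21, adjusted p = 0.912, edgeR, Benjamini-Hochberg). With the length trend removed ERAP1 passed as lower (-0.35, adjusted p = 0.0181, edgeR, Benjamini-Hochberg), and with total counts it was 0.25 and did not pass. Its span overlaps those of CAST and ERAP2, so reads in shared stretches cannot be told apart without strand.

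**Figure D2:**
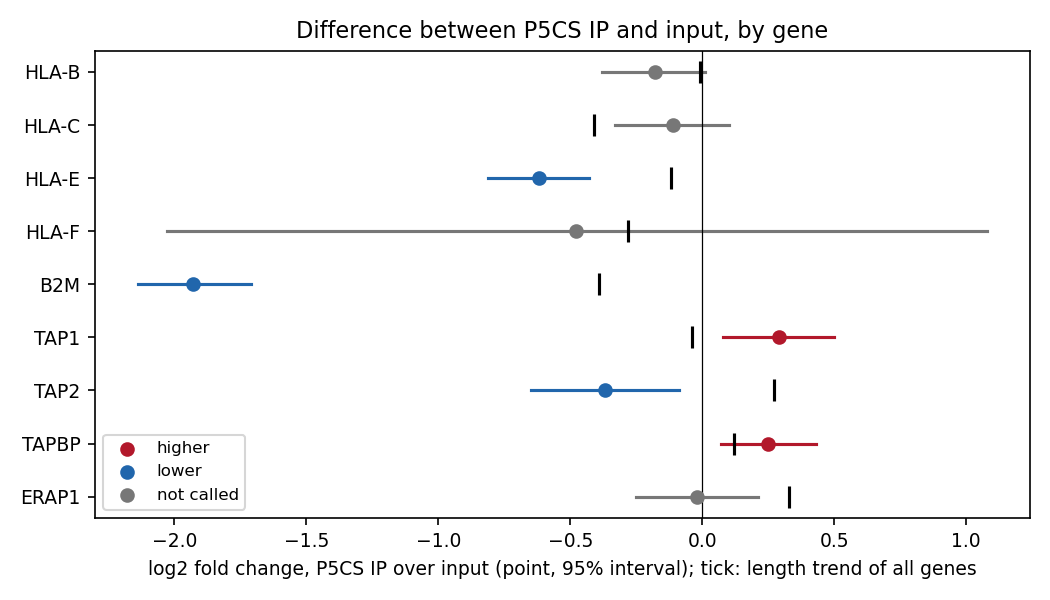
Log2 fold change of the P5CS IP over the input for each gene, with its 95% interval (edgeR, n = 2 libraries a group), coloured by call, and a black tick at the value that the trend of all genes gives for a gene of that length. B2M at -1.93 lies far below its tick at -0.39, and the intervals of HLA-B, HLA-C, HLA-F and ERAP1 cross 0.

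Ratios between these genes within a library do not depend on how the libraries are scaled, and they showed the light chain and heavy chains parting. They still carry the length trend, which was -0.39 for B2M and -0.41 (HLA-C) to -0.01 (HLA-B) for the heavy chains. How often ratios of other genes leave the groups without overlap was not computed. B2M made up 10.1% (95% Wilson interval 9.37 to 10.9) and 9.39% (8.65 to 10.2) of the summed counts of B2M and the 4 heavy chains in P5CS IP 1 and 2. In input 1 and 2 its share was 24.6% (23.8 to 25.6) and 24.0% (23.2 to 24.9). The groups did not overlap, at 9.75% ± 0.506 against 24.3% ± 0.423 (SD, n = 2 each). The exact two-sided permutation p was 0.333, the smallest that 2 libraries against 2 can give. Per length, on the deposited FPKM values (counts scaled by gene-model length and library total), the summed value of the 4 heavy chains was 2.07 and 2.10 times that of B2M in the inputs and 6.06 and 6.57 times in the P5CS IP.

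The TAP genes parted in the same libraries. TAP1 took 76.1% (95% Wilson interval 74.3 to 77.8) and 77.8% (76.1 to 79.5) of the counts of TAP1 and TAP2 in P5CS IP 1 and 2, and 70.1% (68.1 to 72.0) and 66.0% (64.1 to 67.8) in input 1 and 2. The groups did not overlap, at 77.0% ± 1.21 and 68.0% ± 2.91 (SD, n = 2 each, exact two-sided permutation p = 0.333, again the smallest possible). HLA-B, in contrast, took 63.2% (61.5 to 64.8) and 63.9% (62.2 to 65.5) of the counts of HLA-B and HLA-C in the P5CS IP and 62.8% (61.2 to 64.3) and 66.4% (65.0 to 67.8) in the input. Here the IP libraries lay between the inputs (63.5% ± 0.507 and 64.6% ± 2.55, SD, n = 2 each, exact two-sided permutation p = 1.0). HLA-E counts per HLA-B count were 0.99 and 0.898 in the IP and 1.27 and 1.29 in the input, without overlap. The intervals were computed on halved counts, since most small counts were even and both mates of a pair appear to have been counted, and they cover counting error only.

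**Figure D3:**
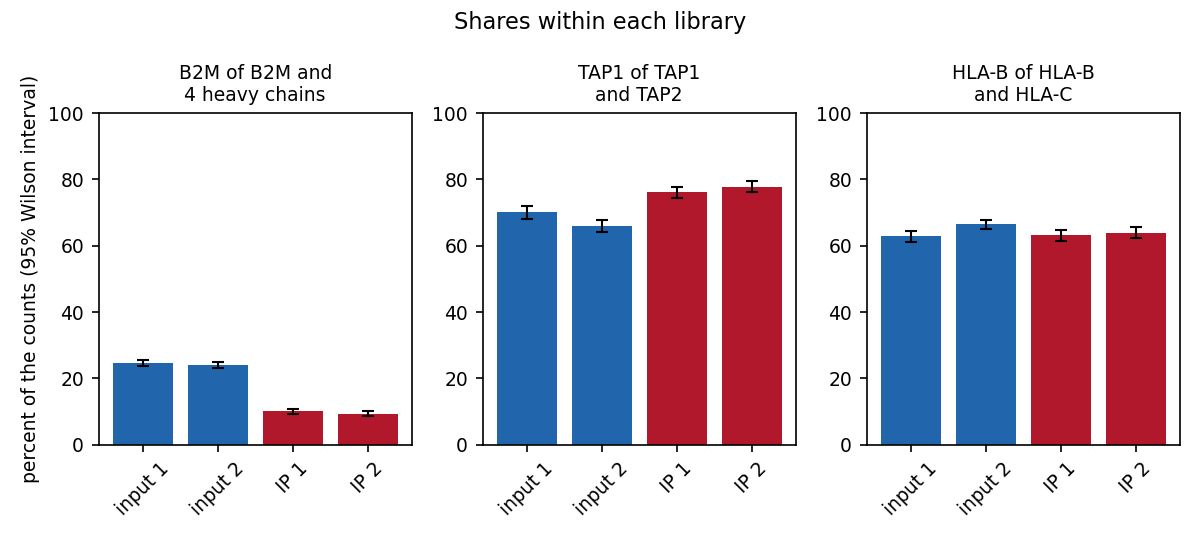
Share of counts, in percent, within each of the 2 input (blue) and 2 P5CS IP (red) libraries, for B2M among itself and 4 heavy chains, TAP1 among the TAP genes and HLA-B among HLA-B and HLA-C, with 95% Wilson intervals for counting error. The B2M share is 24.6 and 24.0% in the inputs and 10.1 and 9.39% in the IP, and the HLA-B share overlaps between the groups.

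Levels of different genes were compared per length, as FPKM on TMM-scaled totals. In the input B2M ranked highest at 73.0 ± 0.562, followed by HLA-E at 65.1 ± 3.98 and HLA-C at 45.4 ± 2.76 FPKM (SD, n = 2). TAPBP at 41.7 ± 0.251 and HLA-B at 41.2 ± 2.10 FPKM overlapped, and TAP1 stood at 27.1 ± 0.662, ERAP1 at 7.34 ± 0.357, TAP2 at 5.79 ± 0.634 and HLA-F at 0.735 ± 0.592 FPKM. In the P5CS IP TAPBP ranked highest at 49.7 ± 2.96 FPKM, HLA-E at 42.2 ± 1.22 and HLA-C at 42.0 ± 0.754 overlapped, and HLA-B followed at 36.4 ± 1.45 and TAP1 at 33.0 ± 2.61 (SD, n = 2). B2M came 6th there, at 19.2 ± 0.909 FPKM, above ERAP1 (7.25 ± 0.475), TAP2 (4.49 ± 0.0493) and HLA-F (0.527 ± 0.179). In the input, 93.3 to 96.2% of genes tested had a lower level than HLA-B, HLA-C, HLA-E, TAPBP and B2M.

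Across all genes, the log2 fold change moved with the length of the gene model, and B2M lay far from that trend. The part of length in the differences was not tested beyond the removal of the trend given here. The median log2 fold change was -0.83 in the shortest of 10 equal bins of the genes tested (58 to 945 nt) and 0.49 in the longest (from 8335 nt). B2M and HLA-C had models of nearly the same length, 1620 and 1560 nt, in the same bin (946 to 1633 nt), whose median was -0.52. Of the genes in that bin, 9.83% had a lower log2 fold change than B2M and 61.8% a lower one than HLA-C. B2M lay 1.54 log2 units below the trend of all genes, at -1.54 relative to it, and HLA-C lay 0.29 above it. TAP2 and ERAP1, with the longest models of the 9 (6360 and 7417 nt), lay at -0.64 and -0.35 relative to the trend, HLA-E at -0.51, TAP1 at 0.33, HLA-B at -0.18 and TAPBP at 0.13. With the trend removed, B2M (-1.54), HLA-E and TAP2 still passed as lower.

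**Figure D4:**
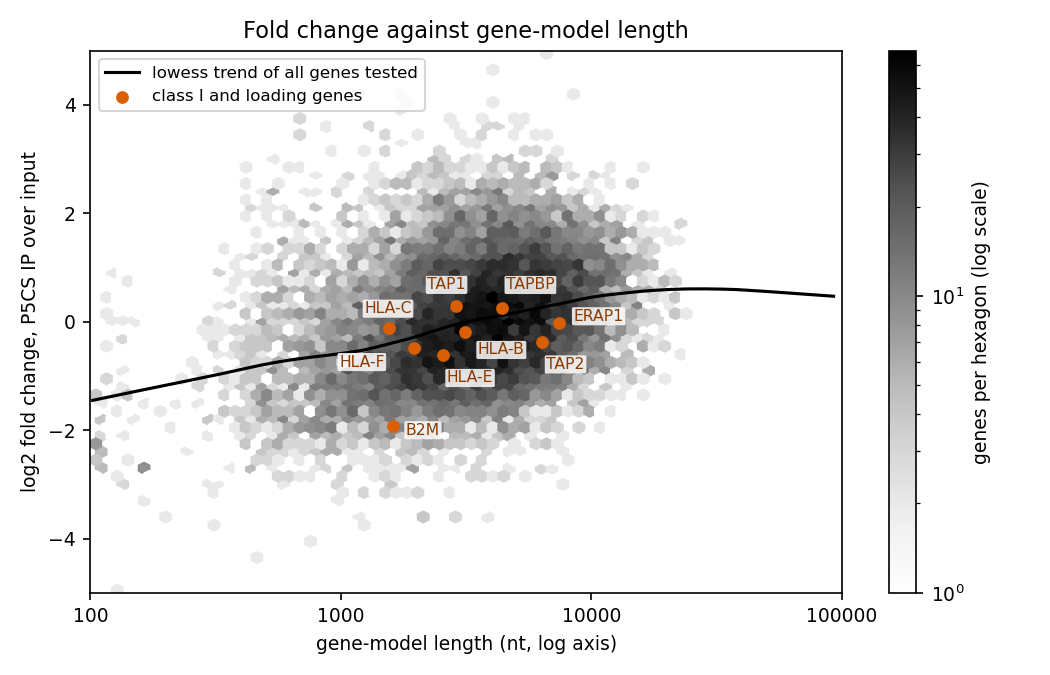
Log2 fold change of the P5CS IP over the input against gene-model length (log axis) for all genes tested (grey, darker for more genes, the most extreme genes lie outside the axes), with the lowess trend and the 9 class I and loading genes in orange. B2M lies 1.54 log2 units under the trend, and HLA-C, of nearly the same length, lies 0.29 above it.

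Genes that work around these 9 were grouped in lists by role, and the lists did not share a direction. Of 13 genes listed under loading chaperones and quality control, 7 were higher, 2 lower and 4 not called. The median difference of this list was 0.52 on the log2 scale, beside -0.01 over all genes. Over all genes tested 25.4% were higher and 25.6% lower, which is the background for this and the following lists. With the length trend subtracted the median was 0.36. Calreticulin gene CALR stood at 882.5 and 860.3 CPM in the IP against 620.5 and 653.5 CPM in the input (log2 fold change 0.45, SE 0.0705). Calnexin gene CANX (0.65, SE 0.071) and PDIA3, the disulfide isomerase of the loading complex (0.52, SE 0.0777), rose as well, and with the length trend removed CANX was 0.21 and still passed (adjusted p = 0.0285, edgeR, Benjamini-Hochberg). The highest of the list was HSPA5, the chaperone BiP (1.14, SE 0.0662), and the lowest was BCAP31 (-0.50, SE 0.0809), which no longer passed once the length trend was removed (-0.19, adjusted p = 0.0754, edgeR, Benjamini-Hochberg). TAPBPL, a tapasin-related peptide editor, and ERAP2, a second trimming enzyme, were scarce, at 3.11 ± 0.697 and 2.11 ± 0.929 CPM in the IP against 1.68 ± 0.868 and 1.29 ± 0.205 CPM in the input (SD over 2 libraries), and did not pass.

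Of 18 peptide supply genes, for proteasome catalytic subunits, proteasome activators and peptidases, 4 rose, 9 fell and 5 were not called. The median of these 18 was -0.64, or -0.45 with the length trend subtracted. Their median gene model was 2259 nt, shorter than the 3425 nt of all genes tested. The lowest was PSMB6, a constitutive catalytic subunit (-1.93, SE 0.146), and the highest was PSME4, a large proteasome activator (0.62, SE 0.0883). PSMB8 and PSMB9, immunoproteasome subunits encoded beside the TAP genes, and the activator subunits PSME1 and PSME2 are named here after their values were seen. PSMB8 stood at 6.32 and 6.05 CPM in the IP against 13.8 and 11.3 CPM in the input (log2 fold change -1.02, SE 0.209). PSMB9 had 32 and 26 counts in the IP and 96 and 86 in the input (-1.53, SE 0.51). The call of PSMB9 was lost in 7 of 15 alternative settings, including without either P5CS IP (-1.60 and -1.42) or without input 1 (-1.36), the highest adjusted p being 0.175 (edgeR, Benjamini-Hochberg). PSME2 was lower (-1.59, SE 0.148), as was PSME1 (-0.80, SE 0.151), which no longer passed with the length trend removed (-0.28).

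The regulators of class I transcription were mixed, with 8 of 26 higher, 9 lower and 9 not passing, and a median of -0.24, which was -0.02 with the length trend subtracted. NLRC5, the main transcription activator of class I genes, was the highest of them. It stood at 9.56 and 9.87 CPM in the P5CS IP against 1.97 and 2.34 CPM in the input, so the IP libraries were well above the inputs. The means were 9.71 ± 0.217 and 2.15 ± 0.262 CPM (SD, n = 2 each), a 4.5-fold difference (log2 fold change 2.17, SE 0.261, adjusted p = 4.08e-05, edgeR, Benjamini-Hochberg), and NLRC5 passed in all 15 alternative settings (1.87 to 2.44). RELA, an NF-kB subunit, was the lowest (-1.11, SE 0.119). Both groups of libraries come from the same line, so these differences are not differences in transcription between conditions.

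Class I-like molecules had only lower calls, and interferon-stimulated genes had more lower than higher calls. Neighbours in the same region had calls in both directions in similar number. Of 11 tested class I-like and non-classical genes, 0 rose, 4 fell and 7 were not called, at a median of -0.60, which was -0.12 with the length trend subtracted. The lowest called was ULBP3, a stress ligand of natural killer cells (-1.11, SE 0.203), and the called gene nearest 0 was PROCR (-0.60, SE 0.14), whose call ended with total counts (-0.33) and with the length trend removed (-0.12). Of 17 interferon-stimulated genes, 2 were higher, led by PARP14 (0.95, SE 0.115), 7 were lower, led by ISG15, a ubiquitin-like modifier (-1.47, SE 0.115), and 8 did not pass. The median of these 17 was -0.29, or -0.43 with the length trend subtracted. Both tested class I pseudogenes, of 12 listed, and all 3 tested genes of class II presentation, of 15 listed, did not pass. They had only 6 to 54 counts per library and wide intervals, so a difference may have been missed. Of 67 other tested genes of the major histocompatibility complex region, where 7 of the 9 class I and loading genes lie, 20 rose, 18 fell and 29 were not called, at a median of -0.01. The lowest was the ribosomal protein gene RPS18 (-3.10, SE 0.101) and the highest called was COL11A2 (3.89, SE 1.17), which rests on 46 and 13 counts in the IP and 2 in each input and was lost in 4 of 13 alternative settings, among them without the first P5CS IP (2.83, adjusted p = 0.392, edgeR, Benjamini-Hochberg), without input 1 (3.96) and without input 2 (3.81).

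By the distance of log2 FPKM over the 4 libraries, FTSJ3 (distance 0.134) and PMPCA (0.137) were among the tested genes closest to the median profile of the 9, which stood at 31.2 and 34.9 FPKM in the IP and 39.8 and 41.8 FPKM in the input. With 4 libraries this likeness is a description of level and difference alone.

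**Figure D5:**
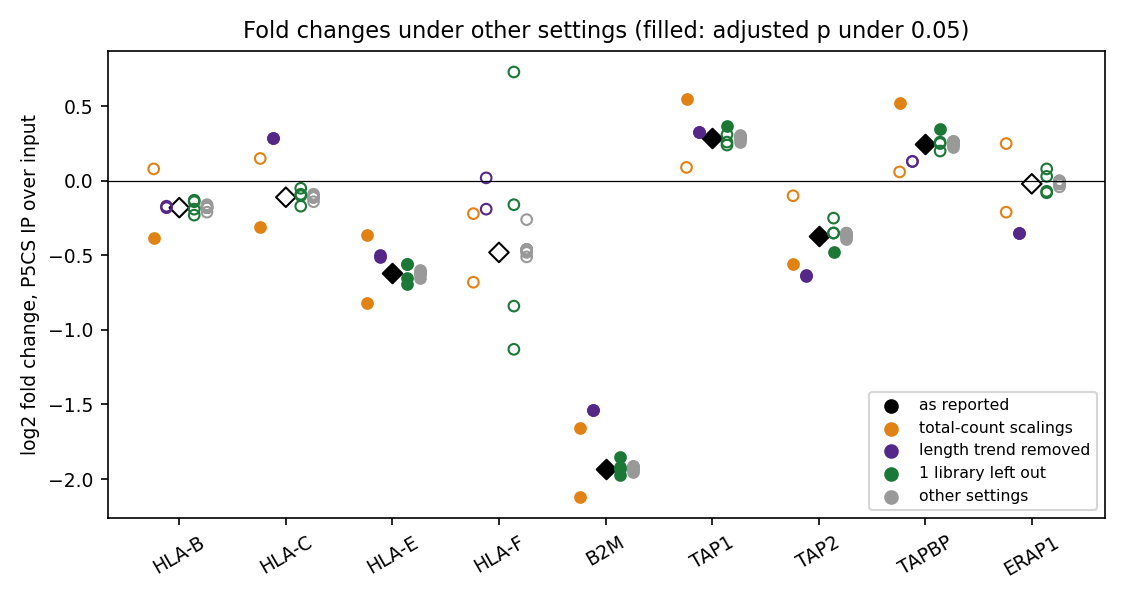
Log2 fold change of the P5CS IP over the input for each gene as reported (black diamonds) and under 15 alternative settings (circles coloured by kind), filled where the adjusted p was under 0.05. B2M (-2.12 to -1.54) and HLA-E (-0.82 to -0.36) are filled and below 0 in all settings. HLA-F is unfilled in all, and the other 6 genes are filled in some.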

How the data were processed

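RNA immunoprecipitation libraries of NCI-H1299 cells (2 P5CS, 2 input) were compared. Per the submitters' processing notes, the tools were STAR 2.7.10a, fastp 0.23.2, DESeq2 and featureCounts on hg38. Their settings, the annotation and the strand are not stated in the sources used here. Tests used the deposited counts, which are whole numbers per gene. FPKM columns, named so per the file headers, served for ratios per length and for gene-model lengths (counts divided by FPKM). The deposited log2 fold change and p-value columns are the authors' own comparison, per the file headers. Count columns were matched to samples by replicate number and by the presence or absence of the word input. All carry the word Cyto, which no label explains, so whether they hold a cytoplasmic fraction is not known here. Of 21373 rows, 1 repeat was dropped. Between 85.76 and 86.4% of counts from 1 to 30 were even. A floor of 3 counts equals 0.0647 to 0.0953 CPM.

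Tests used the quasi-likelihood functions glmQLFit and glmQLFTest of edgeR 4.0.16 under R 4.3.3, after filterByExpr and TMM, with no replicate term, and were adjusted by Benjamini-Hochberg over 17304 genes at 0.05, with CPM on TMM-scaled totals. TMM factors were 1.102 and 1.091 (P5CS IP) and 0.9194 and 0.9045 (input). The standard error is the log2 fold change over the square root of F. The length trend was a lowess of log2 fold change on log2 length (span 0.3), used as an offset. DESeq2 1.42.0 was an alternative. The edgeR script was tested on simulated data with few changed genes, balanced between directions. That test does not bear on the choice of scaling, since many genes were called here. The 2 libraries of each group were neither identical nor alike within sampling noise. Deviations of same-numbered libraries from their group means did not go together (r = -0.00594 across 17304 genes, which are not independent replicates), so equal numbers were not taken as pairs.

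The 9 genes and all lists were chosen with earlier results of these data known. Genes named outside the 9 are the highest and lowest called of each list, 6 genes acting directly on class I chains or their transcription, genes among the 3 nearest the median profile (1 is not reported here), and those said to be named after their values were seen. Cell type markers are named as a check of the label, and EPCAM, PTPRC, NKX2-1, KRT7, KRT19, CDH2 and ZEB1 among them were chosen after their values were seen. Promoter windows are from RefSeq.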

Additional observations from a re-analysis of the deposited data

How the results depend on the processing

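Across 15 alternative settings, B2M (-2.12 to -1.54) and HLA-E (-0.82 to -0.36) kept their direction and call in all 15. TAP1 kept its call in 11, TAP2 in 10 and TAPBP in 9, and all 3 kept their sign in 15. HLA-B turned sign with total-count scaling (0.08), HLA-C with total counts (0.15) and with the length trend removed, without and with the replicate block (0.29 each), and HLA-F with the block and length trend removed (0.02) and without the first input (0.73, with -1.13 to 0.73 when leaving out each library). ERAP1 turned with total counts (0.25), DESeq2 (0.00), and when leaving out P5CS IP 2 (0.08) or input 2 (0.03), with -0.08 to 0.08 over the settings that leave out 1 library, and FTSJ3 with total counts (0.02). The median of the 9 genes moved from -0.18 to 0.08 with total counts and -0.38 with totals without RN7SL, RMRP, RPPH1, RN7SK and mitochondrial genes, a setting in which 0 of the 9 were higher and 5 lower. Leaving out 1 library gave 0 to 1 genes higher, 2 to 3 lower and a median of -0.19 to -0.07. 1 group then holds a single library, assumed to vary like the other. On FPKM the difference in B2M share was -18.7 points in place of -14.6, and that in TAP1 share 5.64 in place of 8.93. Leaving out 1 library moved the B2M share difference over -15.0 to -14.2 points, that of TAP1 over 6.87 to 11.0 and that of HLA-B over -2.88 to 0.728, the last turning without the second input. The replicate block alone left 2 of the 9 genes higher and 3 lower, and 4449 and 4487 genes in all against 4400 and 4432. It changed no call among the 9. The causes of these changes were not tested. HLA-F had 26 to 85 counts per library, and no control immunoprecipitate was analysed here.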
